A study of Schizosaccharomyces pombe with 6 samples.

Results

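The flocculin genes of fission yeast, *gsf2* and *pfl2* to *pfl9*, were described in 3 peak lists from chromatin immunoprecipitation of CFP-Cnp1, the CENP-A histone variant that marks centromeres. All 9 genes were found by name in the reference annotation, out of 5113 protein-coding genes on the 3 nuclear chromosomes. They had been selected on values of these same lists, since *gsf2* was known to hold the highest summit on a chromosome arm and *pfl2* to lie at a long stretch with no peak. Those values are therefore given as a description with no test. The lists come from an untagged strain, which carries no CFP-Cnp1, from a WT strain with CFP-cnp1:Kan, and from *SUMO-KallR*, which carries CFP-cnp1:Kan together with a SUMO in which all lysines are replaced by arginine, so that SUMO chains cannot form. All were grown in rich medium (YES) and precipitated with the same anti-GFP antibody, after budding yeast cells had been added as a calibrator. Each strain gave 1 ChIP library and 1 input library, so no difference between strains can be set against an error, and none was tested.

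Flocculins are cell wall glycoproteins that let yeast cells stick to each other and to surfaces. Their genes tend to carry internal tandem repeats, which encode the stalk of the protein, and to lie near long regulatory regions under the control of activators and repressors of flocculation. *gsf2* encodes the main flocculin of fission yeast, which binds galactose residues on neighbouring cells, and the *pfl* genes (for pombe flocculin) encode its relatives. The untagged strain is the control for what the antibody and the procedure bring down without their target. Why its list is far wider than that of WT was not tested.

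For each gene, the window ran from 2 kb before to 2 kb after the annotated gene body, 63813 bp in all, and a base was counted as covered when it lay under a peak of the list. The lists differ greatly in extent. The untagged list holds 961 peaks over 11972544 bp, the WT list 59 peaks over 140844 bp and the *SUMO-KallR* list 1615 peaks over 11670487 bp. In the untagged and *SUMO-KallR* lists most of the genome is therefore under a peak, and what sets a locus apart is a missing peak or a high summit. The height of a summit is the deposited score divided by 10, read as −log10 of a *p*-value by the convention of MACS. It depends on the depth of its own library and was ranked only within its list.

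The sequences below show the repeats on which the highest summits of the family lie. They are units of the coding sequence from RefSeq (ASM294v3), printed in the direction of transcription, and the start of a unit was set by the first base of the repeated tract and not by the reading frame. For each gene the copy under the highest untagged summit comes first and is in lower case. Among the copies after the first of the tract, the one that differs most from the summit copy follows, with differing bases in capitals. The first copy of the tract, not printed, differs more, at 46 positions in *gsf2*, 20 in *pfl3* and 21 in *pfl5*.
gsf2 copy 2 (chrIII:962958-963191, minus strand): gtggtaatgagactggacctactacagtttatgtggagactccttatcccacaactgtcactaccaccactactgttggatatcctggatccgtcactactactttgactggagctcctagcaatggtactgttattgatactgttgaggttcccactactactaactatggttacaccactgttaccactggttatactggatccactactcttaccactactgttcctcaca
gsf2 copy 4 (chrIII:962490-962723, minus strand): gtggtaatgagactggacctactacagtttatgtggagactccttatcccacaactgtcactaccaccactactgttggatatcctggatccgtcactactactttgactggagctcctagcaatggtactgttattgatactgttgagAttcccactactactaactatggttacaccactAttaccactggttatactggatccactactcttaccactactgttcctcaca
pfl3 copy 4 (chrII:670854-670958, minus strand): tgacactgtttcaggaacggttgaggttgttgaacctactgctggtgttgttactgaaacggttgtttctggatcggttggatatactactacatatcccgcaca
pfl3 copy 9 (chrII:670329-670433, minus strand): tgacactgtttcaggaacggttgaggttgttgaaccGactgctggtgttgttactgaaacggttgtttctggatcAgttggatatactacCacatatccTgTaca
pfl5 copy 2 (chrII:4422122-4422226, plus strand): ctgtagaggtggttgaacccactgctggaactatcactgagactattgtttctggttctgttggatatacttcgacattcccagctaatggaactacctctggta
pfl5 copy 9 (chrII:4422857-4422961, plus strand): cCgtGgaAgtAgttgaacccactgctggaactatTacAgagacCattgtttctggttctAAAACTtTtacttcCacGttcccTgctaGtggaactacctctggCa
The *gsf2* unit of 234 bp (78 codons) is longer than a read of 150 bases, and copy 4 differs from copy 2 at 2 positions. Of the 6 whole copies, 3 are identical, so a read within them has several equal places. The units of *pfl3* and *pfl5* are both 105 bp (35 codons). In *pfl3*, 2 of the other whole copies are identical to the copy with the summit and copy 9 differs from it at 5 positions. In *pfl5*, none of the other copies among 16 is identical and copy 9 differs at 19 positions.

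The stretches before 3 of the genes are shown next because of their coverage, which is missing in both dense lists, missing in *SUMO-KallR* or partial in the untagged list. Each is the 200 bases before the annotated start, with G and C in capitals.
pfl2 upstream (chrI:3991413-3991612, minus strand): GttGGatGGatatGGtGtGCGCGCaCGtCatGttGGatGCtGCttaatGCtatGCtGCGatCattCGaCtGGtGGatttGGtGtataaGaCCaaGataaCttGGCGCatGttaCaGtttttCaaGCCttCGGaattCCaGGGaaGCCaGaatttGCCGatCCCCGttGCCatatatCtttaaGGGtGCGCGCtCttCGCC
pfl5 upstream (chrII:4421195-4421394, plus strand): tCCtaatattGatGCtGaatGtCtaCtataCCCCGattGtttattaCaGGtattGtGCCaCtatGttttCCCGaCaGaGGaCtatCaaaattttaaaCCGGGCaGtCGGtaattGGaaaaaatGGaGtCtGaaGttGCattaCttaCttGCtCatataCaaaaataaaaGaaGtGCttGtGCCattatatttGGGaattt
gsf2 upstream (chrIII:966013-966212, minus strand): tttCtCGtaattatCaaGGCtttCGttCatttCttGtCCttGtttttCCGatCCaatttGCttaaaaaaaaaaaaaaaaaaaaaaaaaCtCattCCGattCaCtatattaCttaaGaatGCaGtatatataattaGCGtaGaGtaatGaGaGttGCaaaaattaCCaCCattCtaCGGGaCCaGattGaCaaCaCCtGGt
The *pfl2* stretch has a GC content of 49.0% and lies under no peak of either dense list. The *pfl5* stretch (35.5% GC) is fully covered in the untagged list and 0% covered in *SUMO-KallR*. The *gsf2* stretch (31.5% GC) is 45.0% covered in the untagged list and 100% covered in *SUMO-KallR*. No order with GC content can be read from these 3 stretches.

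No window held a WT peak. Over all protein-coding genes, 0.685% of windows held any WT peak and 0.313% of gene bodies held a WT summit, so the count of 0 of 9 is near the background and is no result about the family. The WT list held 5 summits on the arms, defined as places over 100 kb from a chromosome end and from the midpoint of a centromere. They lay in the retrotransposon Tf2-8 (height 6.4), rgf1 (2.5), the retrotransposon Tf2-3 (2.4), set3 (2.2) and aim29 (2.0). All further values on the flocculin genes therefore come from the untagged and *SUMO-KallR* lists.

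Across the 9 windows together, 82.3% of bases lay under untagged peaks and 77.6% under *SUMO-KallR* peaks. The windows of all protein-coding genes were covered to 96.6% and 93.9%. The median window of the family was covered to 84.8% in the untagged list and 77.2% in *SUMO-KallR*, beside 100% and 96.9% for all genes. None of the 9 windows was covered from end to end in either list. Over all genes, 33.7% of windows in the untagged list and 56.3% in the *SUMO-KallR* list were not covered from end to end. An uncovered stretch of at least 500 bp was found in 5 of 9 windows in the untagged list (10.9% of all genes) and in 7 of 9 in *SUMO-KallR* (21.9% of all genes). The members nearest to that length in the untagged list were *pfl8* above it with 690 bp and *pfl6* below it with 446 bp. In *SUMO-KallR* the nearest were *pfl4* above it with 603 bp and *pfl7* below it with 357 bp. Missing coverage had a part in the choice of *pfl2*, so these counts describe the family and do not test it.

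**Figure D1:**
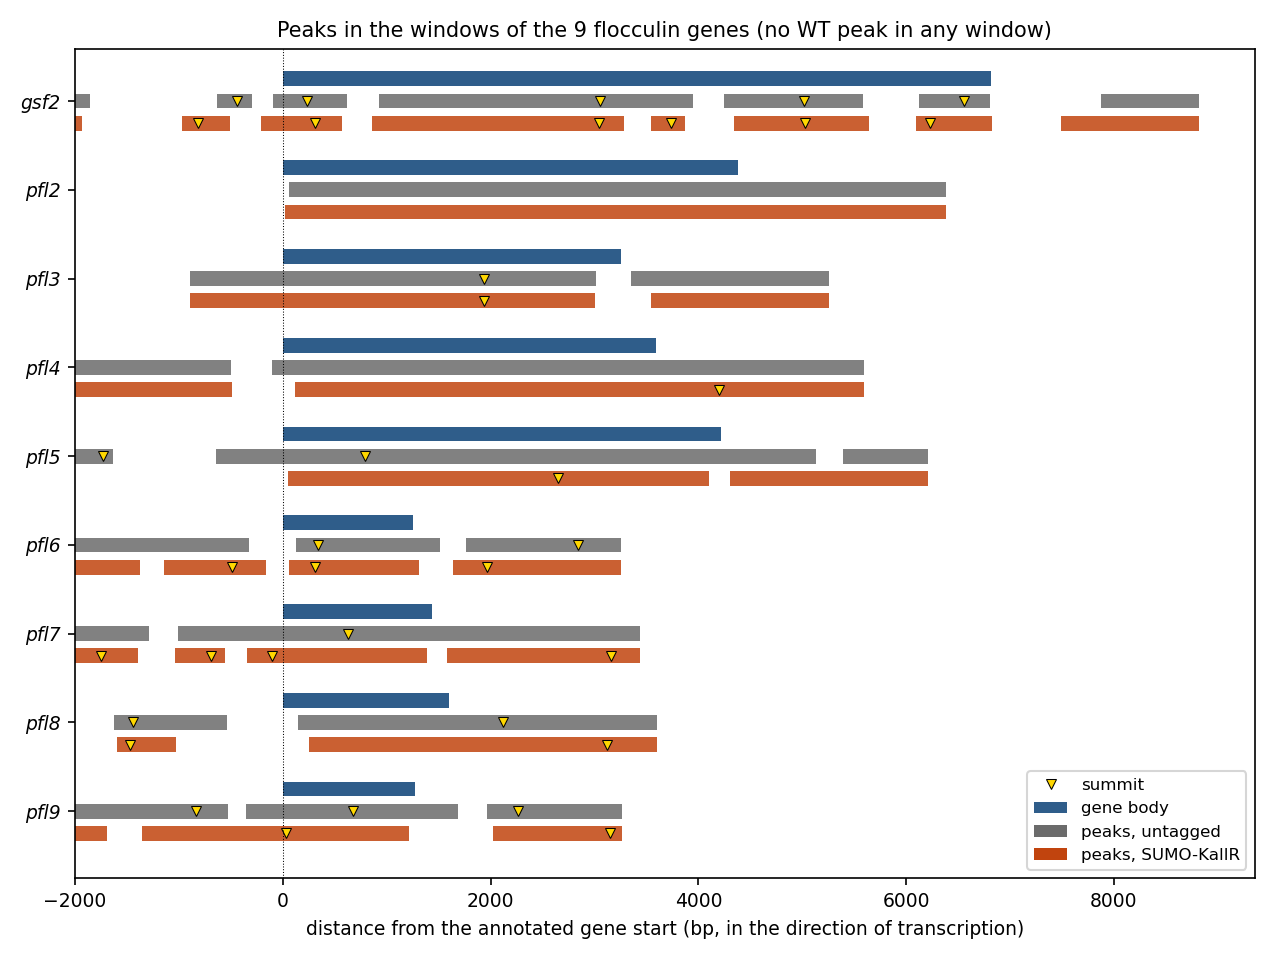
Peaks in the window of each flocculin gene, as distance in bp from the annotated gene start in the direction of transcription. Blue bars are gene bodies, grey bars untagged peaks, orange bars *SUMO-KallR* peaks and triangles summits inside the window. The bodies are nearly filled and the empty stretches lie mostly to the left of the start, as for *pfl2*, where nothing lies upstream in either list.

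Coverage differed along the gene in the same way in both lists. The 2 kb upstream of the 9 genes were covered to 57.6% in the untagged list and 46.7% in *SUMO-KallR*, the gene bodies to 93.8% and 91.2%, and the 2 kb downstream to 89.1% and 87.3%. For all genes these values were 93.8% and 89.3% upstream, 99.0% and 98.1% in the body, and 96.8% and 94.0% downstream. The upstream side was less covered than the body for 9 of 9 members in both lists. The same order held for 21.7% of all genes in the untagged list and 37.2% in *SUMO-KallR*. Of the 18000 upstream bases of the family, 7637 were uncovered in the untagged list and 9593 in *SUMO-KallR*, against 1954 and 2281 of the 18000 downstream bases. The comparison of upstream and body was chosen after the values of the windows had been seen. It used the same windows as the choice of *pfl2*.

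**Figure D2:**
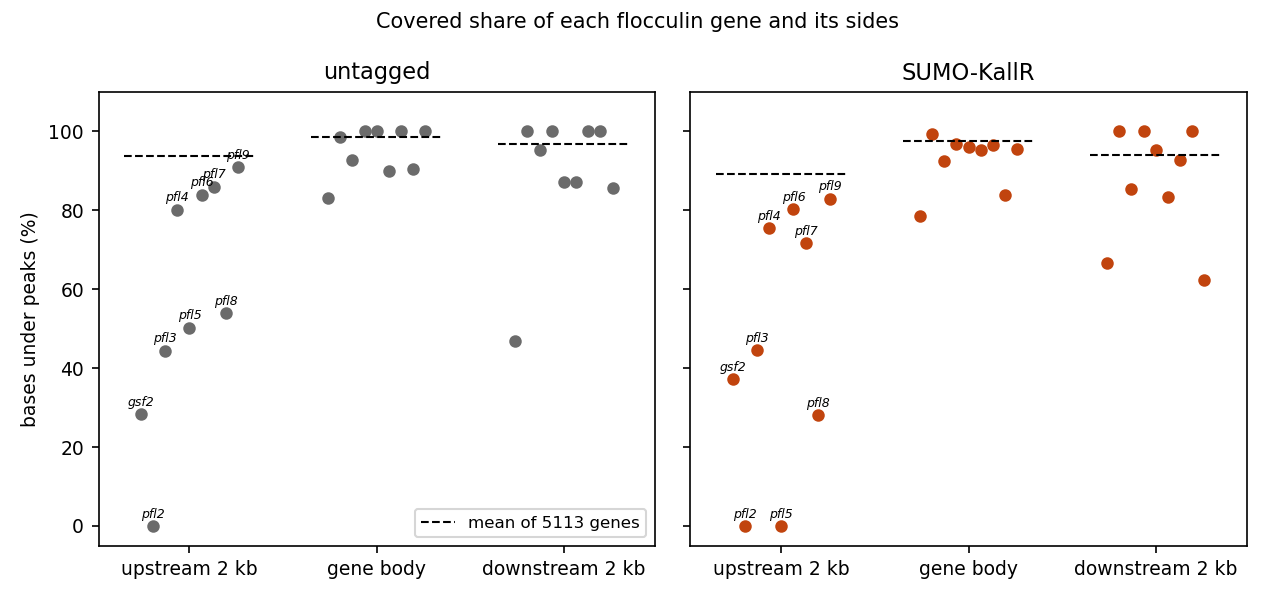
Share of bases under peaks (%) in the 2 kb upstream, the body and the 2 kb downstream of each flocculin gene. Points are the 9 genes, named on the upstream side, and dashed lines the mean of all 5113 genes. All 9 upstream points lie below the dashed line in both lists, and *pfl2* is at 0 in both.

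The members fell into a less and a more covered set upstream. *pfl2* was covered to 0% upstream in both lists, *gsf2* to 28.3% (untagged) and 37.2% (*SUMO-KallR*), *pfl3* to 44.4% and 44.5%, *pfl5* to 50.3% and 0%, and *pfl8* to 54.0% and 28.1%. The upstream sides of *pfl4* (80.2% and 75.5%), *pfl6* (84.0% and 80.3%), *pfl7* (86.0% and 71.7%) and *pfl9* (91.0% and 83.0%) were closer to the value of all genes. Between the lists, 2 members had a higher upstream coverage in *SUMO-KallR* than in the untagged list, *gsf2* and, by 1 bp, *pfl3*. *pfl2* was equal and 6 were lower. With 1 library per strain these differences have no error.

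**Figure D3:**
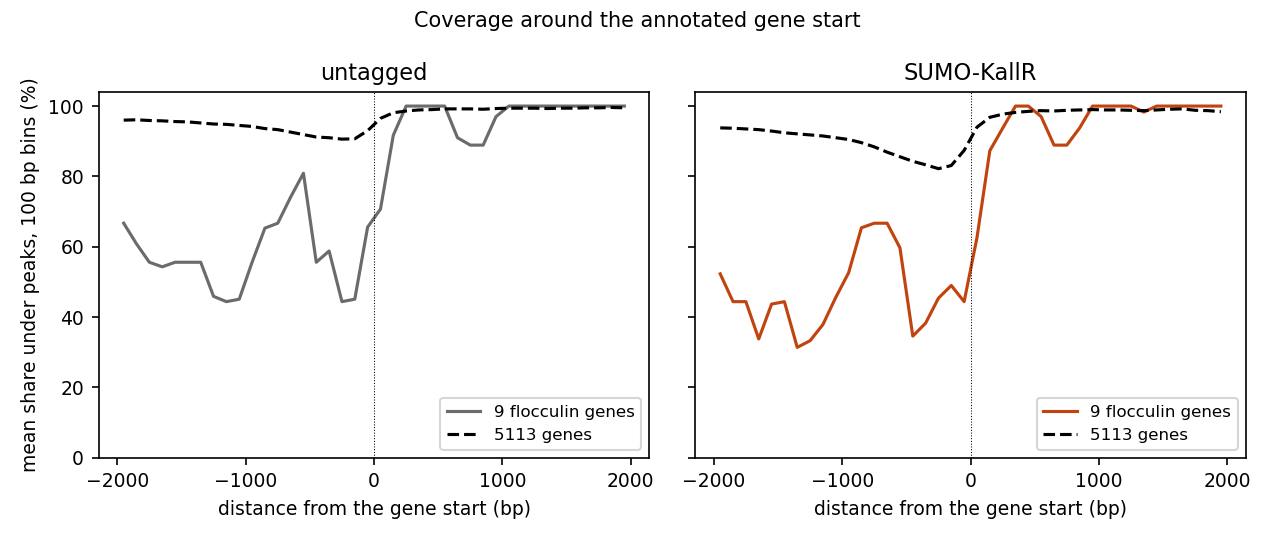
Mean share under peaks (%) in bins of 100 bp by distance from the annotated gene start (bp), for the 9 flocculin genes (solid) and all 5113 genes (dashed). A bin inside the body uses only genes that reach it. The solid lines lie well below the dashed ones to the left of 0 and come close to them to the right.

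The whole windows ranged from 66.3% for *gsf2* to 94.8% for *pfl4* and *pfl7* in the untagged list, and from 68.7% for *gsf2* to 92.1% for *pfl4* in *SUMO-KallR*. *gsf2* was the least covered member in both lists and *pfl4* was the most covered, together with *pfl7* in the untagged list. In the untagged list, 1.41% of all genes had a less covered window than *gsf2* and 20.1% a less covered one than *pfl4*. The bodies were covered to between 83.2% (*gsf2*) and 100% in the untagged list, with 4 of 9 covered fully, *pfl4*, *pfl5*, *pfl7* and *pfl9*. In *SUMO-KallR* they were covered to between 78.5% (*gsf2*) and 99.4% (*pfl2*), and none fully. The median body of all genes was covered to 100% in both lists. The share of all bodies covered fully was not counted.

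*pfl2* (locus SPAPB15E9.01C, chromosome I, 3987033 to 3991412, minus strand) encodes a protein of 1036 residues. Its body was covered to 98.5% in the untagged list and 99.4% in *SUMO-KallR*, by a single peak in each that ended just inside the annotated start. No summit lay in its window. The peaks over the body had their summits at 3984599 (height 55.4, untagged) and 3984612 (height 56.7, *SUMO-KallR*), in the neighbouring gene SPAPB18E9.04C. From 3991349 in the untagged list and 3991387 in *SUMO-KallR* no base was covered up to the edge of the window, which gave gaps of 2064 and 2026 bp inside it. The whole gaps ran on to 3996136 (4788 bp) and 3994669 (3283 bp). They hold the non-coding RNA gene SPNCRNA.954 and the coding genes SPAPB15E9.02C and SPAPB15E9.06, wholly or in part. Every 150-base word that starts in the window part of the gap occurs once in the genome, and its GC content is 38.3% (untagged) and 38.4% (*SUMO-KallR*). A longer gap in the window was found for 34 of 5113 genes in the untagged list and for 51 in *SUMO-KallR*.

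Genes whose own body held the longest uncovered stretches were looked up beside *pfl2*, outside 50 kb of the centromeres. In the untagged list these were the meiotically upregulated gene mug115 (2528 bp), SPAC17A2.11 (1674 bp), the hexose transporter gene ght7 (1630 bp), rgp1 (1622 bp) and SPCC1672.01 (1593 bp). In *SUMO-KallR* they were SPBPJ4664.02 (6060 bp), mug114 (1992 bp), SPCC569.01C (1840 bp), SPCC1672.01 (1829 bp) and SPCC1235.17 (1779 bp). Within the body of *pfl2* the longest stretch was 64 bp and 26 bp. The long gap of *pfl2* is thus one of its upstream side and not of its coding sequence.

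*pfl5* (SPBC1289.15, chromosome II, 4421395 to 4425608, plus strand) had the largest difference between the dense lists in upstream coverage and in the length of the longest gap. Its longest gap in the window was 993 bp in the untagged list, from 4419764 to 4420756, and 2054 bp in *SUMO-KallR*, from 4419395 to just inside the body at 4421448. A small untagged peak upstream (height 4.0) and the left part of the peak over the body covered part of what was uncovered in *SUMO-KallR*. The 993 bp of the untagged gap were uncovered in both lists. The gap holds non-coding RNA genes, among them SPNCRNA.6604 and SPNCRNA.6605, and no other coding gene. A gap longer than that of *pfl5* was found for 237 genes in the untagged list and for 46 in *SUMO-KallR*.

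*pfl8* (SPAC1F8.06, chromosome I, 99833 to 101431, plus strand) showed the same order, with longest gaps of 690 bp and 1287 bp, both reaching from the upstream side into the body. Non-coding RNA gene SPNCRNA.607 lies in both gaps. *pfl3* (SPBC947.04, chromosome II, 669581 to 672835, minus strand) had almost equal gaps upstream, 1112 bp in the untagged list and 1111 bp in *SUMO-KallR*, starting 1 bp apart at 673724 and 673725. They ran past the window to 2749 bp and 1598 bp in all and hold SPNCRNA.322 and SPNCRNA.4826.

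*gsf2* (SPCC1742.01, chromosome III, 959199 to 966012, minus strand) had the most broken window, with 6 gaps in the untagged list and 7 in *SUMO-KallR*. The longest lay upstream, 1224 bp in the untagged list and 956 bp in *SUMO-KallR*, over the non-coding RNA genes SPNCRNA.1164 and SPNCRNA.1165. Gaps of 1070 bp and 666 bp at the downstream end held SPNCRNA.478, and SPNCRNA.1162 in the untagged list, with 1 long terminal repeat in each. The annotated leader of *gsf2*, 2040 bp before the start codon, is the fifth longest of all genes.

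The remaining members had gaps under 500 bp in the untagged list, and in *SUMO-KallR* *pfl4* and *pfl9* had longer ones. *pfl4* (SPCC188.09C, chromosome III, 1492788 to 1496382) had a single gap of 397 bp in the untagged list and 603 bp in *SUMO-KallR* at or just before its start, with a GC content of 24.9% and 25.9% and 1 long terminal repeat. In *SUMO-KallR* it reached into the body and SPNCRNA.7394. *pfl6* (SPAC977.07C, chromosome I, 42057 to 43307) had longest gaps of 446 bp and 330 bp. The first lay at its start, with SPNCRNA.2018 and SPNCRNA.2019, and the second downstream, with SPNCRNA.601 and SPNCRNA.2018. *pfl7* (SPBC359.04C, chromosome II, 117892 to 119328) had longest gaps of 281 bp and 357 bp upstream over SPNCRNA.293. *pfl9* (SPAC186.01, chromosome I, 5527692 to 5528959) had gaps of 286 bp and 811 bp downstream, with no other annotated gene. The longest gap had its centre upstream for 8 of 9 members in the untagged list and 7 of 9 in *SUMO-KallR*. The exceptions were *pfl9* in both lists and *pfl6* in *SUMO-KallR*. The share of all genes with such a gap was not counted, so this only describes the members. All genes were also less covered upstream (93.8% and 89.3%) than in the body (99.0% and 98.1%).

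Summits inside the gene bodies were fewer and less even. In the untagged list 6 of 9 members held 9 summits, where 14.3% of all genes held any. In *SUMO-KallR* 5 of 9 members held 9 summits, where 26.6% of all genes held any. *gsf2*, *pfl3*, *pfl5*, *pfl6* and *pfl9* had a summit in both lists, *pfl7* in the untagged list, and *pfl2*, *pfl4* and *pfl8* in neither. Long genes have more room for a summit, and *gsf2* alone gave 4 of the 9 in the untagged list and 5 of the 9 in *SUMO-KallR*.

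**Figure D4:**
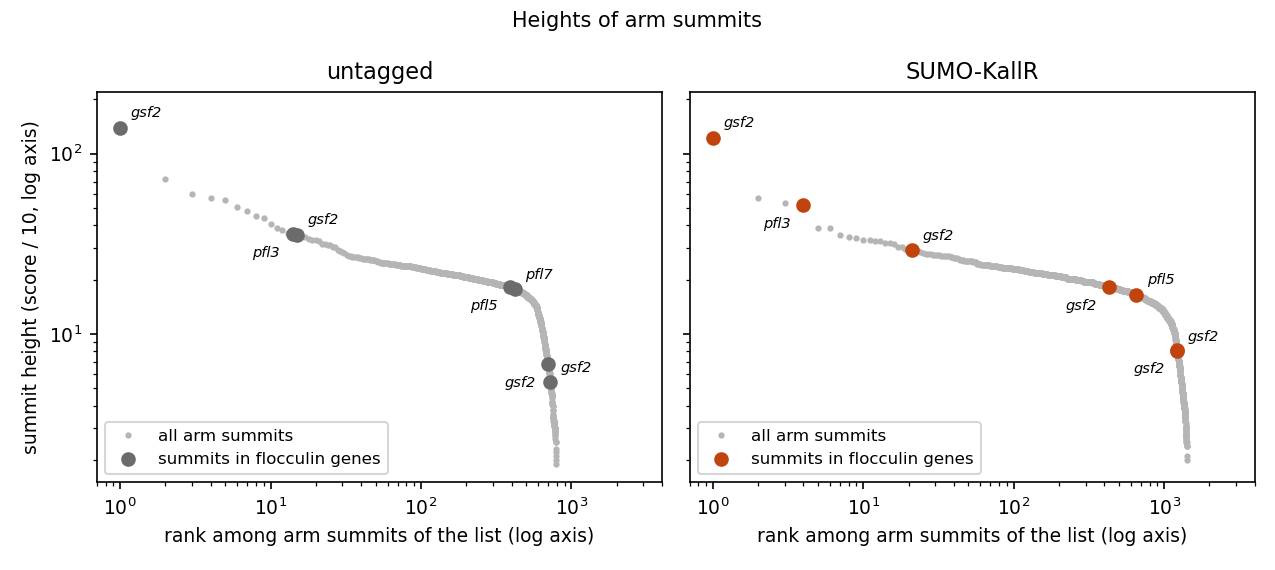
Height of every arm summit (score divided by 10, log axis) against its rank in the list (log axis), with the summits in flocculin genes named. *gsf2* has the highest of these arm summits in both lists, at 139.2 and 123.0, while its lowest summits and those of *pfl5* and *pfl7* lie in the body of the distribution or below it.

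The highest *gsf2* summit, the value the gene was chosen for, had a height of 139.2 at 962958 in the untagged list, where the next arm summit reached 72.7. In *SUMO-KallR* it had a height of 123.0 at 962967, 9 bp away, where the next reached 56.7. The medians of the arm heights were 18.1 over 790 summits and 16.0 over 1413. Both *gsf2* summits lie in the coding sequence, 1015 and 1006 bp from the start codon. A second pair, 35.5 at 2977 bp and 29.1 at 2990 bp, also lay close together, at arm ranks of 15 and 21. The other untagged summits were low, with 6.8 near the end of the coding sequence and 5.4 in the leader. In *SUMO-KallR* the others were 18.3, above the median arm height, and 8.1 and 8.0, below it.

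The genes with the next highest body summits on the arms were, in the untagged list, ubi4 (59.5), which encodes polyubiquitin as repeats of the ubiquitin sequence, mal1 (56.7), SPAPB18E9.04C (55.4), the retrotransposon Tf2-8 (50.4) and map4 (44.2). In *SUMO-KallR* they were SPAPB18E9.04C (56.7), dlc2 (53.6), which encodes a dynein light chain, *pfl3* (51.8), Tf2-8 (38.8) and rpl301 (38.8), which encodes a ribosomal protein. *pfl3* stood at arm rank 14 in the untagged list, with a height of 35.9 at 670901, and at arm rank 4 in *SUMO-KallR*, with 51.8 at 670900, 1 bp away. The summits of *pfl5* were close to the median arm height, 18.2 at 4422183 (arm rank 390) in the untagged list and 16.5 at 4424046 (arm rank 652) in *SUMO-KallR*, and lay in different parts of the gene. *pfl6* reached 14.9 at 42964 and 17.5 at 42994. *pfl7* reached 17.7 in the untagged list, and in *SUMO-KallR* its nearest summit (10.4, at 119432) lay just before the body. *pfl9* was lowest, with 5.9 and 6.6. In the untagged list 9.7% of all peaks were lower than the *pfl9* summit, and in *SUMO-KallR* 11.5% were.

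The higher summits of the family lay in tandem repeats of the coding sequence. A tandem repeat was found where a window of at least 1 unit is at least 80% identical to the sequence 1 unit further on, and over a whole tract made of such windows the identity can be lower. Repeats made up at least 20% of the coding sequence in 4 of 9 members, *gsf2* (34.3% for its main unit), *pfl2* (25.8%), *pfl3* (42.5%) and *pfl5* (67.6%). Over all genes 26 of 5113, or 0.509%, had as much, and this is a property of the reference and uses no library. No such repeat was found in *pfl4* and *pfl6* to *pfl9*. The units of the family and of the mating agglutinin genes differ in length but all of those found are whole numbers of codons.

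In *gsf2* the unit of 234 bp runs from base 548 to base 2156 of the coding sequence in 6.88 copies with 93.0% identity from copy to copy. The summits of 139.2 and 123.0 lie in it. A second tract of 132 bp units (44 codons) from base 2427 to base 3442 holds the summits of 35.5 and 29.1 and is fully covered in both lists. The remaining tract, of 246 bp units (82 codons) from base 3443 to base 4276, is covered to 36.0% in the untagged list and 45.3% in *SUMO-KallR* and holds only the low summit of 8.1. A high summit was thus found on 2 of the 3 tracts. Within the first tract copy 4, whose sequence is given above, was fully covered in the untagged list and 0% covered in *SUMO-KallR*, although copies 2 and 3 were covered to 100% and 98.3% there.

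In *pfl3* the 105 bp unit runs from base 1389 to base 2389 in 9.53 copies with 94.4% identity, and the summits, 1761 and 1762 bp from the start codon, lie in it. In *pfl5* the tracts run from base 605 to base 2361 (16.7 copies, 89.0% identity) and from base 2397 to base 3244 (8.08 copies, 83.8% identity). Its untagged summit, 771 bp from the start codon, lies in the first and its *SUMO-KallR* summit, at 2634 bp, in the second. In *pfl2* units of 48 bp and 93 bp, with 78.4% to 86.1% identity, are covered in full in both lists and hold no summit. The coding sequences of *pfl3* and *pfl5*, which share a unit length of 105 bp, have 2 words of 20 bases in common. Exact words miss likeness between sequences that differ at scattered positions, so how alike the 2 units are was not measured.

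**Figure D5:**
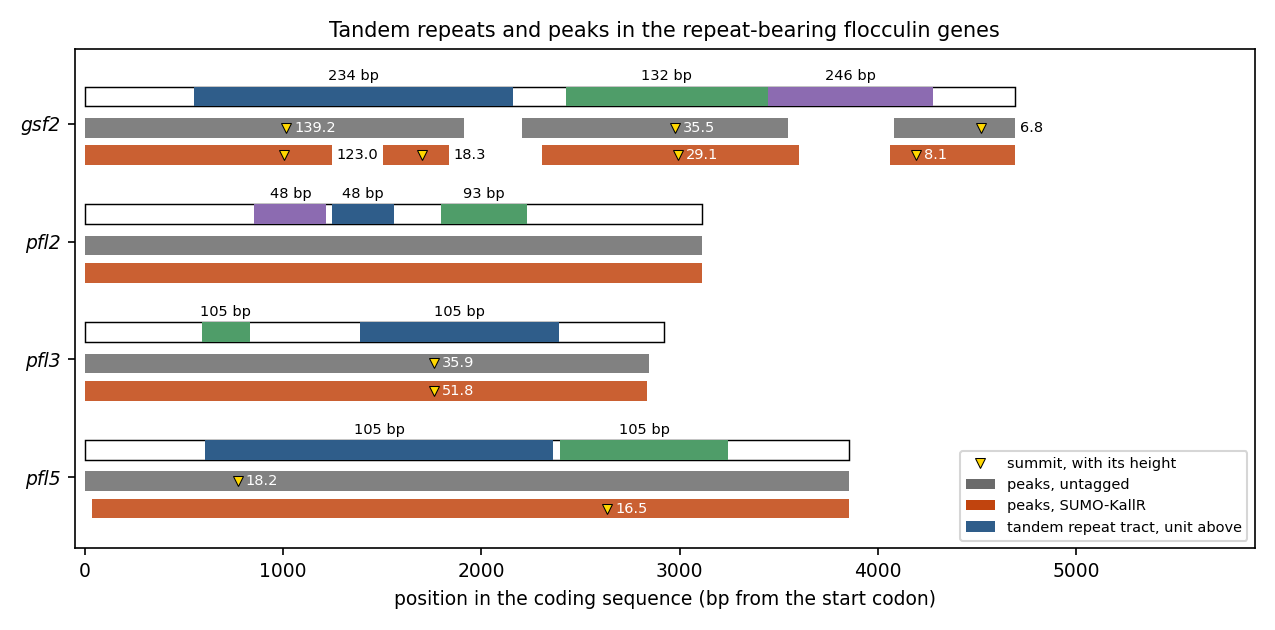
Coding sequences of the 4 repeat-bearing flocculin genes (open bars, position in bp from the start codon) with tandem repeat tracts coloured and their unit length above. Grey and orange bars are untagged and *SUMO-KallR* peaks and triangles summits with their heights. The highest summits, 139.2 and 123.0 in *gsf2* and 35.9 and 51.8 in *pfl3*, fall inside a tract, and *pfl2* has tracts but no summit.

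A read that fits several places cannot be assigned to one, so the share of unique sequence is given beside the summits. None of the 150-base words that overlap the highest *gsf2* summits, the second pair of *gsf2* summits or the *pfl3* summits occurs once in the genome, and the same holds for the *pfl6* summits. In the untagged *pfl5* summit 68.0% of these words are unique and in its *SUMO-KallR* summit 100% are. Of the 12 highest arm summits in coding genes, 7 in each list (58.3%) have no unique word over them. At ranks 13 to 100 the share was 10.2% in the untagged list and 15.9% in *SUMO-KallR*. Beyond rank 100 it was 0.947% and 0.540%. The 12 include summits of *gsf2* and *pfl3* in both lists, among them the *gsf2* summit the gene was chosen for. The part of read placement in the height of these summits was not tested.

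The repeated words of *gsf2*, *pfl2*, *pfl3* and *pfl5* recur only within the same gene body, at 30.1%, 6.35%, 14.4% and 16.7% of the start positions. *pfl6*, which lies 42057 bp from the left end of chromosome I, is different. At 80.0% of its start positions the word recurs once elsewhere, in SPBC1348.08C near the left end of chromosome II, between 22279 and 23429. Its heights of 14.9 and 17.5 therefore cannot be told apart from those of that copy. The bodies of *pfl4*, *pfl7*, *pfl8* and *pfl9* are fully unique, as are 97.3% of all gene bodies.

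Over the 9 windows together, unique bases were covered to 82.0% in the untagged list and 77.1% in *SUMO-KallR*, and bases that are not unique to 84.2% and 80.7%. In the windows of all genes outside the centromeres, 95.9% and 93.1% of unique bases and 90.1% and 84.8% of the others were covered. The 8456 bases that are not unique are mixed in kind, since many lie in the window of *pfl6*, which is unique to 12.5% and shares its words with another chromosome. Within the *gsf2* body, gaps of 308 bp (untagged) and 283 bp (*SUMO-KallR*) were unique throughout. Another part of the missing coverage of *gsf2* did lie on repeats. Its 246 bp tract was covered to 36.0% and 45.3% and its 234 bp tract to 84.7% and 64.0%, and the gaps from 959892 to 960425 (untagged) and from 959916 to 960371 (*SUMO-KallR*) were unique to 16.1% and 7.02%. Inside the windows, the upstream gaps of *gsf2*, *pfl2*, *pfl3*, *pfl4*, *pfl5*, *pfl7* and *pfl9* were unique throughout, while those of *pfl6* and the outer upstream gap of *pfl8* were mostly not. The part of read placement in the missing coverage was not tested.

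Base composition and annotation moved with coverage. Uncovered bases of the family had a GC content of 33.3% (untagged) and 32.4% (*SUMO-KallR*), and covered bases 37.4% and 37.9%. For all genes outside the centromeres the values were 33.8% and 32.0% uncovered, and 36.2% and 36.4% covered. In this paragraph and the next, all genes means this set. In tiles of 200 bp the family was below all genes in each class of GC content. Between 30% and 35% GC its 80 tiles were covered to 80.7% and 72.4%, where those of all genes reached 95.9% and 92.5%. At 40% GC and above its 114 tiles reached 89.8% and 88.3%, where those of all genes reached 96.4% and 96.2%.

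Coding sequence makes up 45.6% of the bases of the family's windows and 58.1% of those of all genes outside the centromeres. Coding bases in the flanks alone were not counted. Coding bases were covered to 93.6% and 93.1% in the family, beside 99.4% and 99.0% in all genes. Bases with only a non-coding RNA gene were covered to 63.0% and 59.0%, beside 83.6% and 76.3%. Bases with no gene were covered to 73.9% and 58.2%, beside 85.3% and 73.0%. In all 3 classes the family was less covered, and the parts of base composition and annotation in this difference were not tested. The tiles and classes were chosen after the values of the windows had been seen.

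The dense lists largely covered the same bases of the family. Of the bases under untagged peaks 90.7% were also under *SUMO-KallR* peaks, and of those under *SUMO-KallR* peaks 96.2% were also under untagged peaks, 47608 bp in all. For all genes the shares were 96.1% and 99.0%. Neither list covered 9421 bp of the family (14.8%), beside 3.26% for all genes. The untagged list alone covered 4890 bp, 1264 bp of them at *pfl5* and 866 bp at *pfl9*. The *SUMO-KallR* list alone covered 1894 bp, 1016 bp of them at *gsf2*.

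The mating agglutinin genes and the regulators of flocculation were looked up from fixed lists. *mam3* and *map4*, which encode the adhesins of the mating types, also carry tandem repeats, both with a 108 bp unit (36 codons). *map4* had a summit in its repeat tract in both lists, 44.2 in the untagged list and 34.3 in *SUMO-KallR*, although every 150-base word that starts in its body is unique. *mam3* had a summit only in *SUMO-KallR* (12.6). Their upstream sides were covered to 100% in both lists. A gap of at least 500 bp was found for 0 of 2 in the untagged list (10.9% of all genes) and 1 of 2 in *SUMO-KallR* (21.9% of all genes).

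Of 13 regulators 12 were matched in the annotation, and *rfl1* was not. A gap of at least 500 bp was found for 5 of 12 in the untagged list (10.9% of all genes) and 7 of 12 in *SUMO-KallR* (21.9% of all genes). *lkh1*, which encodes a LAMMER kinase that keeps flocculation down, was covered to 6.30% and 0% in its upstream 2 kb, with gaps of 1919 bp and 2048 bp. *ssn6*, which encodes a corepressor that works with *tup11* and *tup12*, was covered to 1.25% and 0% upstream, with gaps of 1975 bp and 2074 bp. *tup11* reached 43.5% and 29.2% upstream, and *tup12* was covered to 100%. For *mbx2*, an activator of flocculation genes, the upstream side was covered to 100% and the body to 57.9% and 35.8%. Among the genes of adhesion defective mutants, *adn2* was fully covered upstream in the untagged list and covered to 17.0% in *SUMO-KallR*, *adn1* (annotated as ldb1) to 82.0% and 40.8%, and *adn3* fully in both. Of the CSL transcription factor genes, *cbf12* was covered to 54.1% and 74.6% upstream and *cbf11* fully in both. The kinase module genes of Mediator, *med12* (srb8) and *cdk8* (srb10), were fully covered upstream in both.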

How the data were processed

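Calibrated ChIP-seq libraries of 3 strains were analysed through the deposited narrowPeak lists, and the inputs only as far as the authors used them. Reads had been cut with Cutadapt, placed by Bowtie2 on ASM294v2 and SacCer3 and filtered with Samtools by the authors, who used MACS3 with the larger of the local and overall background, calibrated by the budding yeast reads and ran *bdgpeakcall* on each library. Tool versions, the cutoff and the details of a later, stricter background removal were not given in the sources used here. For the height, the deposited score was divided by 10. The columns of fold, *p* and *q* values hold 0 throughout and were not used. Read numbers per peak were not used here, and so no interval is given. Input libraries were not analysed here.

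Genes, windows and sequences came from RefSeq ASM294v3, and all peaks end within its chromosomes. Gene bodies include untranslated regions. Positions were used as deposited, counted from 1. The centromere midpoint is that of the widest WT peak of each chromosome. A base is unique when the 150-base word starting there occurs once on both strands. The 9 members, the lists of related genes and the alternatives were chosen with earlier results of these data known, and the upstream, GC, annotation and repeat copy comparisons after the values had been seen. Named genes are the members, the 5 next arm body summits, the 5 longest gaps in a body outside the centromeres, genes in the longest gap of each window and the 2 lists. Coverage, gaps, unique words and repeat spacing were tested on simulated data. Alternatives changed flanks, height floors, peak widths, merging, arm limits, word lengths and overlap. The work used pandas 2.3.3, NumPy 2.4.6 and SciPy 1.17.1 in Python 3.11.15, with plots by matplotlib 3.10.9.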

Additional observations from a re-analysis of the deposited data

How the results depend on the processing

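No paired analysis was possible because each strain has 1 ChIP library, and for the same reason no library could be left out. Heights depend on library depth, no read number stands beside a peak, and a gap says only that no peak was reported there. No value of the WT list left 0 under any of its 18 alternative values. Of 117 alternative values, 76 stayed close to the first value and 41 moved. For a percentage, close means inside its 95% binomial interval over bases, and for a count or length within 1.5 times. Bases under the same peak or gap are not independent, so that interval is too narrow. The labels are a convention and measure no spread between libraries. Values are given for the untagged list first and *SUMO-KallR* second.

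The covered share of the windows was 84.9% and 80.3% with flanks of 1 kb, 81.8% and 78.7% with 5 kb, and 93.8% and 91.2% with no flank. It was 81.2% and 76.1% with a height floor of 5, 69.8% and 63.9% with a floor of 10, and 87.4% and 83.6% with peaks closer than 500 bp merged. The bodies were covered to 84.6% and 82.2% with a floor of 10, to 97.3% in both lists after merging, and to 95.0% and 93.1% in coding sequence only. After merging, 3 members had a summit in the body in both lists, and 5 windows of the untagged list were not covered from end to end. A summit lay in the window of 8 members in *SUMO-KallR*. With no flank, 5 bodies of the untagged list were not covered from end to end, and gaps of at least 500 bp were found in 1 and 0 members. With flanks of 1 kb such gaps were found in 3 members of the untagged list. The share of all genes was not counted under any alternative setting, for these member counts or for those given below. Whether the family still differs from all genes under these settings was therefore not tested. The *pfl2* gap was 1064 and 1026 bp with flanks of 1 kb, 4788 and 3283 bp with 5 kb, and 64 and 26 bp with none, since the flank sets how much of it is counted. The rank of the *gsf2* summit was 7 and 17 when the chromosome ends were counted as arms. For words of 100 bases the covered share of bases that are not unique was 85.1% and 82.4%, and of unique bases 76.7% in *SUMO-KallR*. For words of 50 bases it was 86.4% and 83.4% for bases that are not unique and 81.3% and 76.2% for unique ones. Among alternatives added after seeing the data, the upstream side was less covered than the body for 8 of 9 members in both lists with 1 kb or from the start codon, and for 9 with a floor of 5 or unique bases only.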
